A study of Mus musculus with 6 samples.

Results

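The 10 circadian clock genes described here are Per1, Per2, Per3, Cry1, Cry2, Dbp, Nr1d1, Nr1d2, Bhlhe40 and Clock, taken by symbol from the deposited gene count table. All 10 were among its 37411 gene rows, and all 10 were among the 16233 genes with enough counts to be tested. The libraries came from primary hippocampal neurons of CD-1 IGS mice, cultured from pups at P0 and used at day 16 in vitro. The 3 cultures of the treated group (libraries 4, 5 and 6) received 50 µM forskolin for 30 min, and the 3 controls (libraries 1, 2 and 3) an equal volume of the solvent dimethyl sulfoxide (DMSO). Forskolin activates adenylyl cyclase and so raises cyclic AMP (cAMP). The labels do not say whether the cultures of a group came from separate animals, so the p-values measure the spread between these cultures only.

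The mammalian clock is a feedback loop of transcription. CLOCK pairs with BMAL1 (the product of Arntl) and activates genes through E-box sequences, among them the Per and Cry genes, whose proteins return to the nucleus and repress the pair. The nuclear receptors encoded by Nr1d1 and Nr1d2 repress Arntl, the transcription factor DBP drives genes that carry D-boxes, and BHLHE40 competes at E-boxes. Per1 is also known as an immediate early gene: light, glutamate or cAMP can induce it through cAMP response elements bound by CREB, independently of the loop, and clock genes are expressed in the hippocampus as well as in the central clock of the hypothalamus.

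Promoter sequences were looked up first because they show which members carry a cAMP element or an E-box near their start. The RefSeq promoter table (GRCm38.p6) matched 8 of the 10 genes, in 11 windows of 250 bases ending just before an annotated start. Per2 and Bhlhe40 have no entry. The windows were searched on both strands for the cAMP response element TGACGTCA, its partial site TGACG (also contained in the whole element), the E-box CACGTG, the D-box TTATGTAA and the nuclear receptor binding hexamer AGGTCA. The whole element was in none of the 11 windows and in 1.55% of all 32851 promoter windows. The partial site was in windows of Per1 (both starts), Cry1 and Cry2 (17.8% of all windows). The E-box was in Per1, at its first start, and in Cry1 (6.02% of all windows), so that these members had both motifs in the same window. The D-box was in Per3 at 2 positions (0.819% of all windows), and AGGTCA in Per1 (first start), Nr1d2 and 1 of the 3 Clock windows (14% of all windows). None of these letters was in the windows of Dbp or Nr1d1. The windows below are those of Per1 and Cry1, the members with both motifs in a window, and of Nr1d1, whose window has neither. Each is written 5′ to 3′ on the strand of the gene, with the partial site or the E-box in capitals; the searched AGGTCA is left in lower case. The positions are chr11:69098699-69098948 (plus strand) and chr11:69099902-69100151 (plus strand) for the first and second start of Per1, chr10:85185055-85185304 (minus strand) for Cry1 and chr11:98775378-98775627 (minus strand) for Nr1d1.
Per1 first start: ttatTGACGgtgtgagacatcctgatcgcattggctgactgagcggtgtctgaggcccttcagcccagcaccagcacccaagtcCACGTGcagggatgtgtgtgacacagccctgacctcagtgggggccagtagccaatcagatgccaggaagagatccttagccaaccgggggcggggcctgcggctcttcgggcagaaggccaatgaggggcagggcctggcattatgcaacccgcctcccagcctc
Per1 second start: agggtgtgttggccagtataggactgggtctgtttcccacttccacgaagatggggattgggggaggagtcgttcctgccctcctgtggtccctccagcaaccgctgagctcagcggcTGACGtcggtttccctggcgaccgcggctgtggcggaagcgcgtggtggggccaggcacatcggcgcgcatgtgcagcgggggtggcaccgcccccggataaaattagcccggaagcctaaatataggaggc
Cry1: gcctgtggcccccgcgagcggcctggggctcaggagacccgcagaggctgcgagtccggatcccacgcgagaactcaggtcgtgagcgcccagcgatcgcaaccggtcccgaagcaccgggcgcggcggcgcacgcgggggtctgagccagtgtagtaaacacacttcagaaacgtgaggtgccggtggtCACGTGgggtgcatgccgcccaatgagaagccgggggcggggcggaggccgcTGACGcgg
Nr1d1: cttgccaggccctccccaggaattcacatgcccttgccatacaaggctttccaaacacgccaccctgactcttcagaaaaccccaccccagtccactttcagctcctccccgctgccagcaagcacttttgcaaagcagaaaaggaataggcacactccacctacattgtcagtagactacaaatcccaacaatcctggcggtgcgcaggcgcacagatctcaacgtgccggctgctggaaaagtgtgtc
The Per1 partial site lay 246 to 242 bases before the first start and 132 to 128 bases before the second, and its E-box 166 to 161 bases before the first. In Cry1 the partial site lay 8 to 4 bases and the E-box 60 to 55 bases before the start. A match describes the sequence only. Sequence outside these windows of 250 bases was not searched, so a motif missing here may lie elsewhere at the gene. First and second start count only the Per1 starts that have a window. In GENCODE M21 Per1 begins further upstream, at chr11:69095217, and no window ended there. Counts are per gene and do not tell transcripts from the different Per1 starts apart.

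Total counts ranged from 28342764 to 47548379 per library, and the 10 genes together took 0.0299 to 0.0369% of them. On the first principal component the scores were -24.8 to -45.7 for the DMSO libraries, 66.3 and 73.7 for forskolin libraries 4 and 5, and -44.2 for forskolin library 6. The mitochondrial ribosomal RNA genes mt-Rnr1 and mt-Rnr2 took 14.0 to 23.7% of the counts with DMSO and 26.9 to 33.3% with forskolin, a higher share in each forskolin library than in any control, library 6 included. The part of this share in the results was not tested. Libraries 4 and 5 differed from the others in markers of other cell types. The 10 microglia markers summed to 22.2 to 32.6 CPM (counts scaled by TMM-adjusted depth) with DMSO, to 182.5 and 298.4 CPM in libraries 4 and 5, and to 23.9 CPM in library 6. Of these 10 markers, 9 lay above every DMSO library in both libraries 4 and 5, and none was at 0 in all libraries. The 10 neuron markers, which include Rbfox3, Map2 and Snap25, summed to 4095 to 5202 CPM with DMSO, to 3016 and 3280 CPM in libraries 4 and 5, and to 4762 CPM in library 6, so neuronal RNA was present in each library. Although its sum was within the range of the controls, library 6 lay below every control in 5 of these 10 neuron markers (Rbfox3 among them) and above every control in 2; libraries 4 and 5 both lay below every control in 7. The 8 astrocyte markers summed to 6996 to 7700 CPM with DMSO and 6936 to 8519 CPM with forskolin. Of these 8, 5 lay above and 1 below every control in both libraries 4 and 5. In library 6, 2 lay above and 5 below every control. The 8 markers of the oligodendrocyte lineage summed to 741.1 to 816.3 CPM with DMSO and 588.8 to 1339 CPM with forskolin. The 8 vascular and meningeal markers summed to 104.5 to 198.2 CPM and 89.2 to 222.7 CPM; the endothelial marker Cldn5 had 0 counts in 5 of the 6 libraries. In bulk RNA, fewer cells of a type and less RNA per cell cannot be told apart. Results are therefore also given without library 6 and for library 6 alone.

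None of the 10 clock genes passed edgeR's quasi-likelihood test at a Benjamini-Hochberg adjusted p of 0.05 with all 6 libraries, where 1.51% of all tested genes did. Of the members, 5 had a positive and 5 a negative fitted log2 fold change, with a median of -0.001, against a median of 0.02 over all tested genes. The median size of the change, sign disregarded, was 0.33 for the members and 0.30 for all tested genes. At an unadjusted p under 0.05 there were 3 of 10 members (Bhlhe40, Nr1d1 and Per2), where 22.3% of all tested genes reached it. The CPM of the groups did not overlap for 1 member higher with forskolin, Bhlhe40 (10.3% of all tested genes), and for 2 members lower with forskolin, Nr1d1 and Per2 (16.2% of all tested genes). The authors' deposited table of 132 genes with increases holds none of the 10; its smallest log2 fold change is 1.501.

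**Figure D1:**
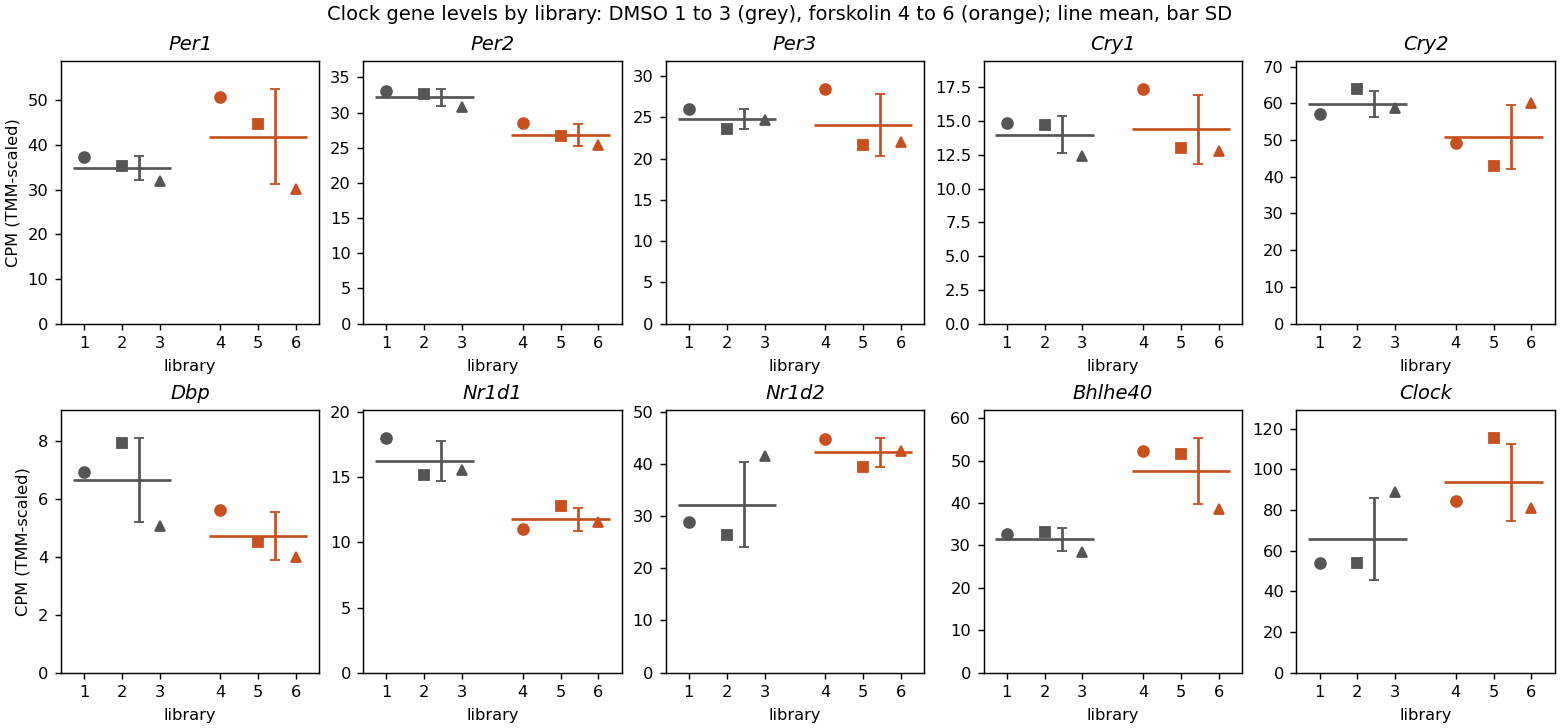
Level of each of the 10 clock genes (vertical axis, TMM-scaled CPM, from 0) in DMSO libraries 1 to 3 (grey) and forskolin libraries 4 to 6 (orange); lines are group means and bars SD (n = 3). The groups do not overlap for Bhlhe40, Nr1d1 and Per2. Library 6 is the lowest forskolin library for Per1, Per2, Cry1, Dbp, Bhlhe40 and Clock.

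Among the Per genes, which encode the repressors of the loop, the levels with forskolin differed from gene to gene. Per1 (chr11:69095217-69109960, plus strand, GENCODE M21) measured 37.3, 35.2 and 31.9 CPM with DMSO (libraries 1, 2, 3) against 50.7, 44.8 and 30.1 CPM with forskolin (libraries 4, 5, 6). Libraries 4 and 5 lay above every control, whereas library 6 lay below every control. With all 6 libraries the log2 fold change was 0.27 ± 0.20 (SE; 95% interval -0.21 to 0.74; edgeR adjusted p = 0.448). Without library 6 Per1 rose by 0.44 ± 0.11 on the log2 scale (edgeR adjusted p = 0.0265), and library 6 alone against the 3 controls gave -0.17 ± 0.16 (edgeR adjusted p = 0.5996). Leaving out any other single library gave 0.10 (without library 4, edgeR adjusted p = 0.851) to 0.34.

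Per2 (chr1:91415982-91459324, minus strand), the close paralog of Per1, measured 33.0, 32.6 and 30.8 CPM with DMSO against 28.5, 26.6 and 25.4 CPM with forskolin, in the same order of libraries. Every forskolin library lay below every control, library 6 as well as the others. The log2 fold change was -0.26 ± 0.10 (SE), which did not pass (edgeR adjusted p = 0.210; 0.102 without library 6). Per3 (chr4:151003652-151044665, minus strand), a member of the family thought to matter less for the loop itself, had 26.0, 23.6 and 24.7 CPM with DMSO and 28.4, 21.7 and 22.04 CPM with forskolin. Library 4 was above and libraries 5 and 6 below all controls, and the log2 fold change was -0.04 ± 0.14 (SE; 95% interval -0.38 to 0.30; edgeR adjusted p = 0.879).

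Ratios of 2 genes within a library do not depend on how libraries are scaled, and were taken for 4 pairs. The log2 ratio of Per1 to Per2 counts stood at 0.18, 0.11 and 0.05 with DMSO against 0.83, 0.75 and 0.24 with forskolin. It was higher in each forskolin library than in any control, library 6 included, by 0.50 on average (1.41-fold). The exact two-sided permutation test gave p = 0.1, the smallest value that 3 against 3 allows, and 0.2 adjusted over the 4 ratios. The ratio does not tell which of the genes differed. The log2 ratio of Per1 to Per3 was 0.52, 0.58 and 0.37 with DMSO and 0.84, 1.05 and 0.45 with forskolin, so that library 6 lay among the controls (difference 0.29, exact permutation p = 0.3, adjusted 0.3). Without library 6 the groups were apart by 0.45 on average (exact permutation, adjusted p = 0.133). The smallest unadjusted p that 2 against 3 libraries allow is 0.1. With any other library left out the groups overlapped, at 0.15 to 0.33.

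Of the cryptochromes, the partners of the PER proteins in repression, Cry1 (chr10:85131700-85185064, minus strand) had 14.8, 14.7 and 12.4 CPM with DMSO and 17.4, 13.0 and 12.8 CPM with forskolin. Only library 4 lay above the controls, and the log2 fold change was 0.04 ± 0.18 (SE; 95% interval -0.38 to 0.46; edgeR adjusted p = 0.908). Its sign turned, to -0.06, when libraries were scaled by size alone. Cry2 (chr2:92403646-92434043, minus strand) had 57.0, 63.8 and 58.8 CPM with DMSO and 49.2, 42.9 and 60.0 CPM with forskolin. Here libraries 4 and 5 lay below every control and library 6 among them. Without library 6 Cry2 fell by 0.40 on the log2 scale (SE 0.10, edgeR adjusted p = 0.0308); with all 6 libraries the value was -0.24 ± 0.14 (edgeR adjusted p = 0.355), and for library 6 alone 0.04 ± 0.14. Leaving out any other single library put Cry2 between -0.26 and -0.098, the latter without library 5 (edgeR adjusted p = 0.812). A noncoding gene on the opposite strand, D930015M05Rik, shares 295 exon bases with Cry2 and had 21 to 30 counts with DMSO and 32 to 104 with forskolin, few beside the 1460 to 2317 counts of Cry2. The log2 ratio of Cry1 to Cry2 was -1.94, -2.11 and -2.24 with DMSO and -1.502, -1.72 and -2.23 with forskolin (difference 0.28, exact permutation p = 0.3, adjusted 0.3). Libraries 4 and 5 lay above every control, and without library 6 the difference was 0.49 (exact permutation, adjusted p = 0.133). Here too 0.1 is the smallest unadjusted p that 2 against 3 libraries allow. With any other library left out the groups overlapped, at 0.12 to 0.36.

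The nuclear receptor genes of the second loop had opposite signs. Nr1d1 (chr11:98767932-98775333, minus strand), which encodes REV-ERB alpha, had 18.0, 15.2 and 15.5 CPM with DMSO and 11.04, 12.8 and 11.5 CPM with forskolin. All 3 forskolin libraries lay below all controls by a similar amount, and the log2 fold change was -0.46 ± 0.14 (SE; 95% interval -0.80 to -0.12). It did not pass in edgeR with 6 libraries (adjusted p = 0.149), passed in DESeq2 (log2 fold change -0.45, adjusted p = 0.0473) and passed in edgeR without library 6 (-0.46, adjusted p = 0.0472). Library 6 alone gave -0.46 ± 0.20 (edgeR adjusted p = 0.353). The 3′ end of Nr1d1 overlaps Thra, a thyroid hormone receptor gene on the opposite strand, over 263 of its 3077 exon bases. Thra had 622.7, 682.3 and 642 CPM with DMSO and 428.1, 425.5 and 499.5 CPM with forskolin (log2 fold change -0.53, edgeR adjusted p = 0.110). The strand setting of the authors' counting is not given in the sources used here, so reads of Nr1d1 and Thra in the shared stretch may not have been told apart.

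Nr1d2 (chr14:18204054-18239127, minus strand), which encodes REV-ERB beta, had 28.8, 26.3 and 41.4 CPM with DMSO and 44.7, 39.3 and 42.4 CPM with forskolin. DMSO library 3 lay within the range of the forskolin libraries, apart from libraries 1 and 2. The log2 fold change was 0.39 ± 0.18 (SE; edgeR adjusted p = 0.264), and 0.60 without library 3 (edgeR adjusted p = 0.154). The log2 ratio of Nr1d1 to Nr1d2 was -0.68, -0.79 and -1.41 with DMSO and -2.02, -1.62 and -1.88 with forskolin. It was lower in every forskolin library than in any control, by -0.88 on average (exact permutation p = 0.1, the smallest possible; adjusted 0.2).

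**Figure D2:**
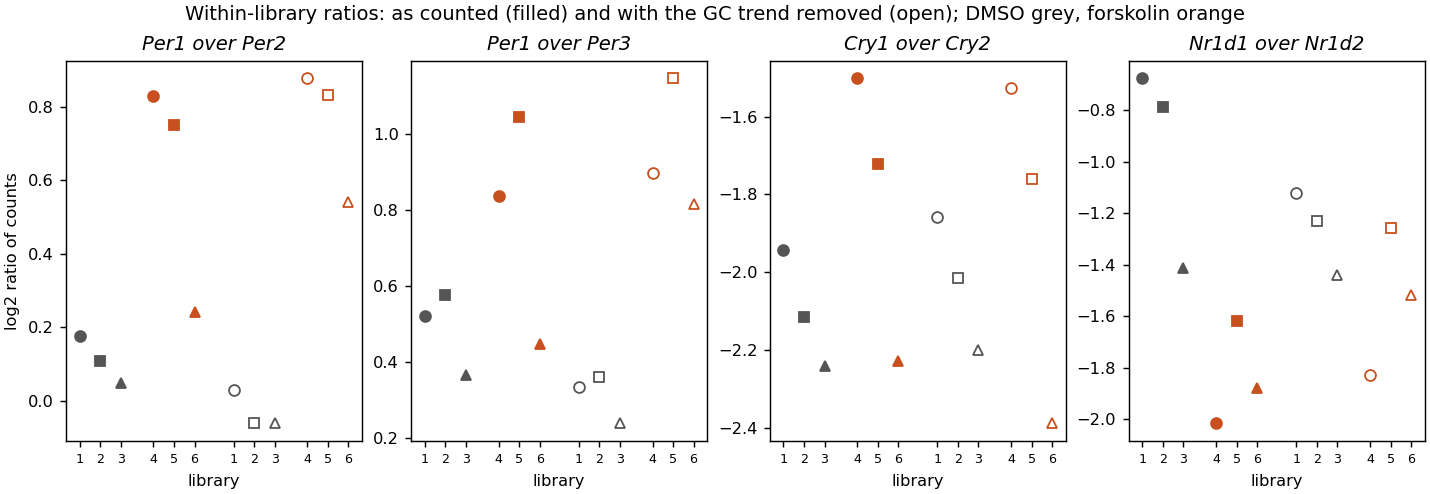
Log2 ratio of counts of 2 clock genes within each library (vertical axis) for DMSO libraries 1 to 3 (grey) and forskolin libraries 4 to 6 (orange), as counted (filled) and with each library's GC trend removed (open). The Per1 to Per2 ratio is higher in each forskolin library than in each control in both forms; the separation of Nr1d1 to Nr1d2 is present only as counted.

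Of the remaining members, Bhlhe40 (chr6:108660629-108666925, plus strand), which encodes the E-box repressor DEC1, had the largest positive log2 fold change of the 10. It had 32.7, 33.3 and 28.4 CPM with DMSO and 52.4, 51.6 and 38.6 CPM with forskolin. Each forskolin library lay above each control, library 6 by the smallest margin. The log2 fold change was 0.60 ± 0.15 (SE; 95% interval 0.24 to 0.95), a 1.51-fold difference, with an edgeR adjusted p of 0.109. It passed in DESeq2 (0.61, adjusted p = 0.0119) and in edgeR without library 6 (0.71 ± 0.10, adjusted p = 0.00565). Library 6 alone, where microglia markers were at the level of the controls, gave 0.33 ± 0.15 (edgeR adjusted p = 0.380). The part of the microglia markers in the larger values of libraries 4 and 5 was not tested. The opposite-strand gene 0610040F04Rik, which shares 118 exon bases with Bhlhe40, had 3 to 9 counts per library.

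Dbp (chr7:45705088-45710203, plus strand), the activator of genes with D-boxes, was the member with the fewest counts, 134 to 265 per library. It had 6.93, 7.94 and 5.08 CPM with DMSO and 5.63, 4.53 and 4.002 CPM with forskolin, so that only library 4 reached the range of the controls. The log2 fold change of -0.49 had a wide error (SE 0.25, 95% interval -1.08 to 0.09, edgeR adjusted p = 0.282). Dbp shares 539 of 2993 exon bases with Sphk2 on the opposite strand, which had 39 to 73 counts per library with a fitted change of -0.58 on the log2 scale (edgeR adjusted p = 0.231). Clock (chr5:76209868-76304792, minus strand), the activator of the loop, had 54.0, 54.0 and 88.9 CPM with DMSO and 84.6, 115.3 and 81.1 CPM with forskolin. As for Nr1d2, DMSO library 3 lay within the forskolin range; the log2 fold change was 0.51 ± 0.24 (SE, edgeR adjusted p = 0.265) and 0.78 without library 3 (edgeR adjusted p = 0.170).

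**Figure D3:**
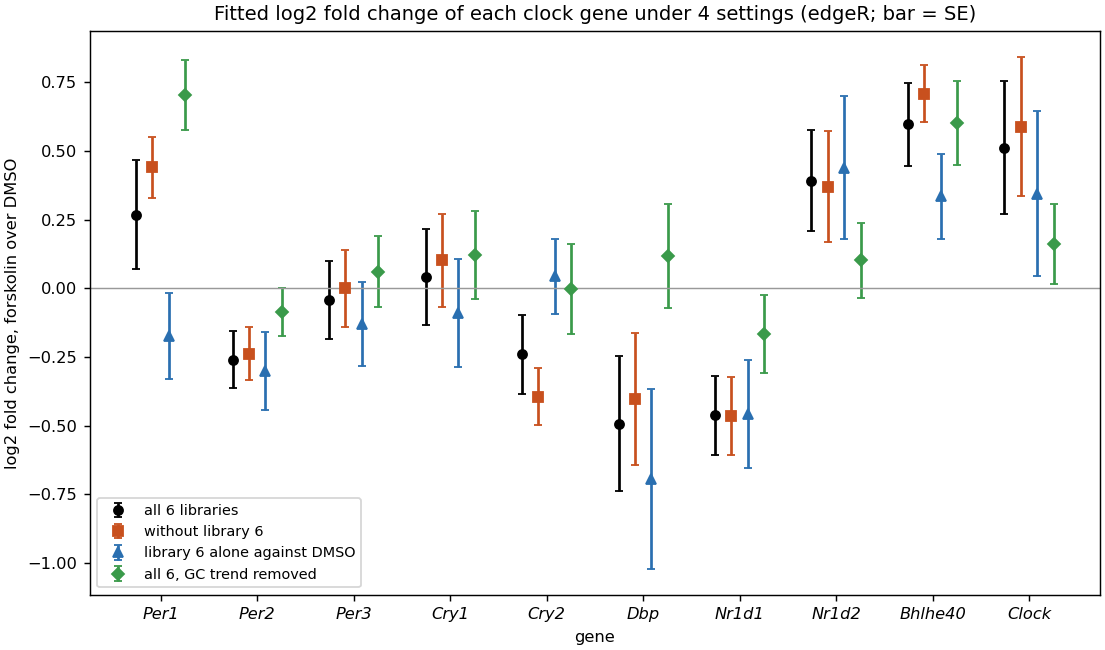
Fitted log2 fold change of forskolin over DMSO (vertical axis; edgeR, bars are SE) for each clock gene with all 6 libraries, without library 6, for library 6 alone, and with the GC trend removed. Per1, Cry1 and Cry2 change sign between the fit without library 6 and library 6 alone; Nr1d1 is at -0.46 in each of the 3 fits without GC removal.

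For the members not yet given in this way, the log2 fold changes without library 6 and for library 6 alone were -0.24 and -0.30 for Per2, 0.37 and 0.44 for Nr1d2, 0.59 and 0.34 for Clock, and -0.40 and -0.69 for Dbp. None of these passed in edgeR (adjusted p from 0.102 to 0.591). Per3 and Cry1 were near 0 in each case, between -0.13 and 0.10.

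Without library 6, edgeR called 4 of the 10 members. Of these, 2 were higher (Per1 and Bhlhe40), where 16.5% of all tested genes were called higher, and 2 lower (Cry2 and Nr1d1), where 17.1% were called lower. DESeq2 with 6 libraries called 2 members, Bhlhe40 and Nr1d1, where it called 11.9% of all genes with an adjusted p. Limma with library quality weights called 5 members (Per1, Bhlhe40 and Clock higher, Cry2 and Nr1d1 lower), where it called 41.9% of all tested genes.

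Across all genes the fold change varied with GC content: the median log2 value was 0.48 in the tenth of genes lowest in it and -0.49 in the tenth highest. The 10 members range widely in GC content, from 40.9% in Clock and 41.8% in Nr1d2 to 59.4% in Per1 and 61.6% in Dbp (longest annotated transcript). The fit was repeated with each library's trend on GC content removed. Per1 then had a log2 fold change of 0.70 ± 0.13 (SE) in place of 0.27 (edgeR unadjusted p = 0.000956, adjusted p = 0.187). Relative to the DMSO mean, its GC-corrected log2 level was 0.06, -0.03 and -0.03 in the controls against 0.86, 0.76 and 0.46 with forskolin. In this scale library 6 lay above the controls for Per1, whereas it lay below them as counted.

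Bhlhe40, with a GC content of 49.4%, kept nearly the same value, 0.60 ± 0.15 (edgeR adjusted p = 0.307). Its corrected log2 level was 0.05, 0.10 and -0.15 in the controls and 0.74, 0.74 and 0.28 with forskolin. The values of Nr1d1 (-0.17), Per2 (-0.09), Nr1d2 (0.10), Clock (0.16) and Cry2 (-0.003) were nearer to 0 than as counted. Dbp and Per3 changed sign, to 0.12 and 0.06, and Cry1 moved from 0.04 to 0.12 (edgeR adjusted p from 0.586 to 0.993 for these 8 members). After correction Nr1d1 overlapped between the groups, and the corrected Per2 groups stayed apart by a small margin, at -0.001 to 0.001 in the controls and -0.05 to -0.12 with forskolin. No gene of the whole table passed in this fit, where 1947 had an unadjusted p under 0.05. With library 6 left out as well, a fit chosen after the data had been seen, 2 members passed, both higher: Per1 (0.80 ± 0.08, edgeR adjusted p = 0.00319) and Bhlhe40 (0.73 ± 0.10, adjusted p = 0.00555). In that fit 16.0% of all tested genes were called higher. Nr1d1 and Cry2, called lower without library 6 as counted, did not pass in it, at -0.23 and -0.20 (edgeR adjusted p = 0.245 and 0.132).

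The ratios were also taken with the GC trend removed, an alternative chosen after the data had been seen. The ratio of Per1 to Per2 kept its separation, at 0.03, -0.06 and -0.06 with DMSO and 0.88, 0.83 and 0.54 with forskolin (difference 0.78, exact permutation p = 0.1, adjusted 0.2). The ratio of Per1 to Per3, whose groups overlapped as counted with 6 libraries, separated after removal, at 0.34, 0.36 and 0.24 with DMSO and 0.90, 1.15 and 0.82 with forskolin (exact permutation p = 0.1, adjusted 0.2). The ratio of Nr1d1 to Nr1d2, genes of 56.8% and 41.8% GC, no longer separated (difference -0.27, exact permutation p = 0.2, adjusted 0.267). For Cry1 to Cry2 the groups overlapped in both forms, with a difference of 0.13 after removal in place of 0.28 (exact permutation p = 0.7, adjusted 0.7).

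**Figure D4:**
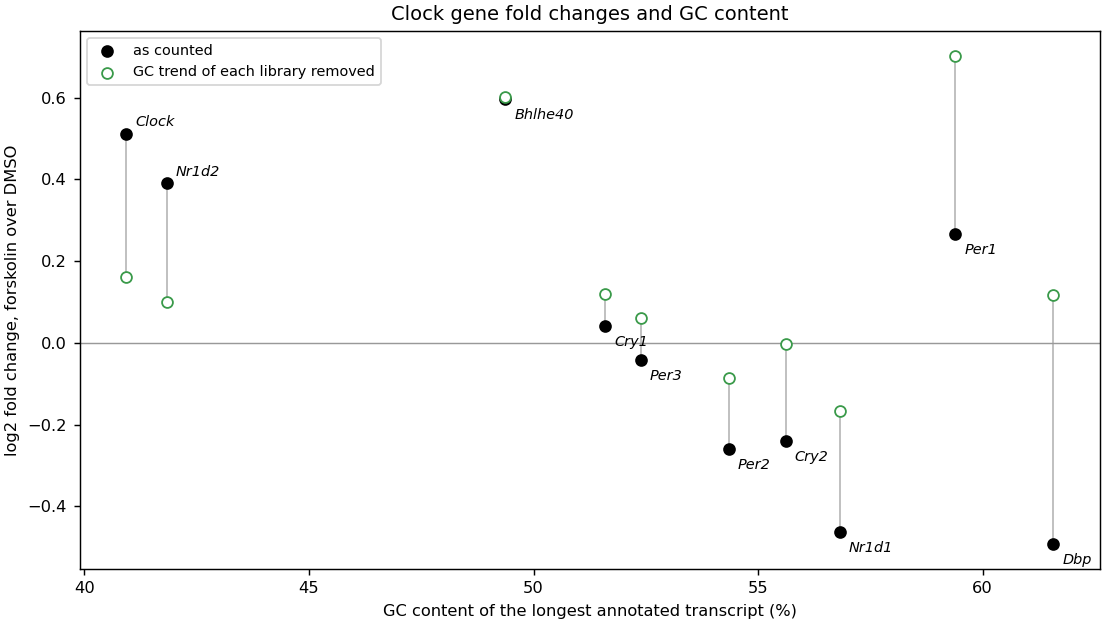
Log2 fold change of each clock gene (vertical axis) against the GC content of its longest annotated transcript in percent (horizontal axis), as counted (filled) and with each library's GC trend removed (open). Per1 moves from 0.27 to 0.70 and Bhlhe40 stays at 0.60, while Clock, Nr1d2, Nr1d1 and Dbp move towards or past 0.

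Levels in the controls were compared between genes per length, as CPM per kilobase of the longest annotated transcript. Cry2 was the highest at 15.1 ± 0.89 (SD, n = 3), followed by Bhlhe40 at 10.1 ± 0.87. In each of these the controls lay above all controls of the gene next in order. Bhlhe40 was not apart from Clock, which had 9.13 in library 3, against 9.11 for Bhlhe40 there. Per1 (7.45 ± 0.59), Nr1d2 (6.90 ± 1.74), Clock (6.74 ± 2.07), Nr1d1 (5.97 ± 0.56) and Per2 (5.51 ± 0.20) followed, with overlapping libraries between neighbours. Cry1 (4.63 ± 0.45), Per3 (4.13 ± 0.20) and Dbp (3.62 ± 0.79) were the lowest and overlapped with each other in the same way, and the controls of Per2 lay above all controls of Cry1. With the length of all annotated exons in place of the longest transcript, Clock moved from the fifth to the seventh place, Per2 from the seventh to the fifth, and no other gene changed place.

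The 22 other genes of the clock pathway were taken from a list of partners of CLOCK, ROR receptors, PAR-domain and related factors, and kinases and ubiquitin ligases of PER and CRY. All 22 were tested, and 0 passed in edgeR with 6 libraries, with 4 at an unadjusted p under 0.05 (18.2% of the list, against 22.3% of all tested genes); 10 had a positive and 12 a negative log2 fold change, with a median of -0.065. DESeq2 called 1 of them, Nfil3, where it called 11.9% of all genes with an adjusted p. Without library 6 edgeR called 5 higher and 2 lower, where 16.5% of all tested genes were called higher and 17.1% lower. With quality weights limma called 9 (5 higher and 4 lower), where it called 41.9% of all tested genes. Arntl, which encodes BMAL1, the partner of CLOCK, had 32.6, 29.4 and 35.9 CPM with DMSO and 35.5, 34.4 and 31.2 CPM with forskolin, with overlapping groups (log2 fold change 0.05, edgeR adjusted p = 0.843). It was named after its values had been seen.

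Nfil3, which encodes a repressor of D-box genes and so opposes DBP, was the gene of the list with the smallest adjusted p. It had 10.99, 10.3 and 7.77 CPM with DMSO and 17.5, 16.5 and 14.4 CPM with forskolin, and was the only gene of the 22 whose forskolin libraries were all above the controls, where 10.3% of all tested genes were. The log2 fold change was 0.74 ± 0.18 (SE, edgeR adjusted p = 0.105), 0.80 without library 6 (edgeR adjusted p = 0.0180), 0.75 in DESeq2 (adjusted p = 0.00651) and 0.92 after removal of the GC trend; over all alternatives the adjusted p ran from 0.00651 to 0.401.

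Rora encodes a receptor that activates Arntl at the elements that NR1D1 and NR1D2 occupy. It had 17.6, 16.2 and 24.6 CPM with DMSO and 32.2, 33.7 and 23.1 CPM with forskolin (log2 fold change 0.61, edgeR adjusted p = 0.181; 0.74 and 0.0272 without library 6). After GC correction Rora was at 0.245 on that scale (edgeR adjusted p = 0.481), and with library 6 left out as well 0.34 (edgeR adjusted p = 0.0543), past the threshold in neither. Arntl2, a paralog of Arntl, had 11, 9 and 12 counts with DMSO and 47, 15 and 11 with forskolin, so that its log2 fold change of 0.87 (edgeR adjusted p = 0.321) rests on library 4. In both genes library 6 lay within the range of the controls. The casein kinase genes Csnk1d and Csnk1e, named after their values had been seen, were the 2 genes of the list lower in every forskolin library, at log2 fold changes of -0.17 and -0.29 (edgeR adjusted p = 0.362 and 0.203), where 16.2% of all tested genes were. With the GC trend removed they were at 0.003 and -0.024.

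**Figure D5:**
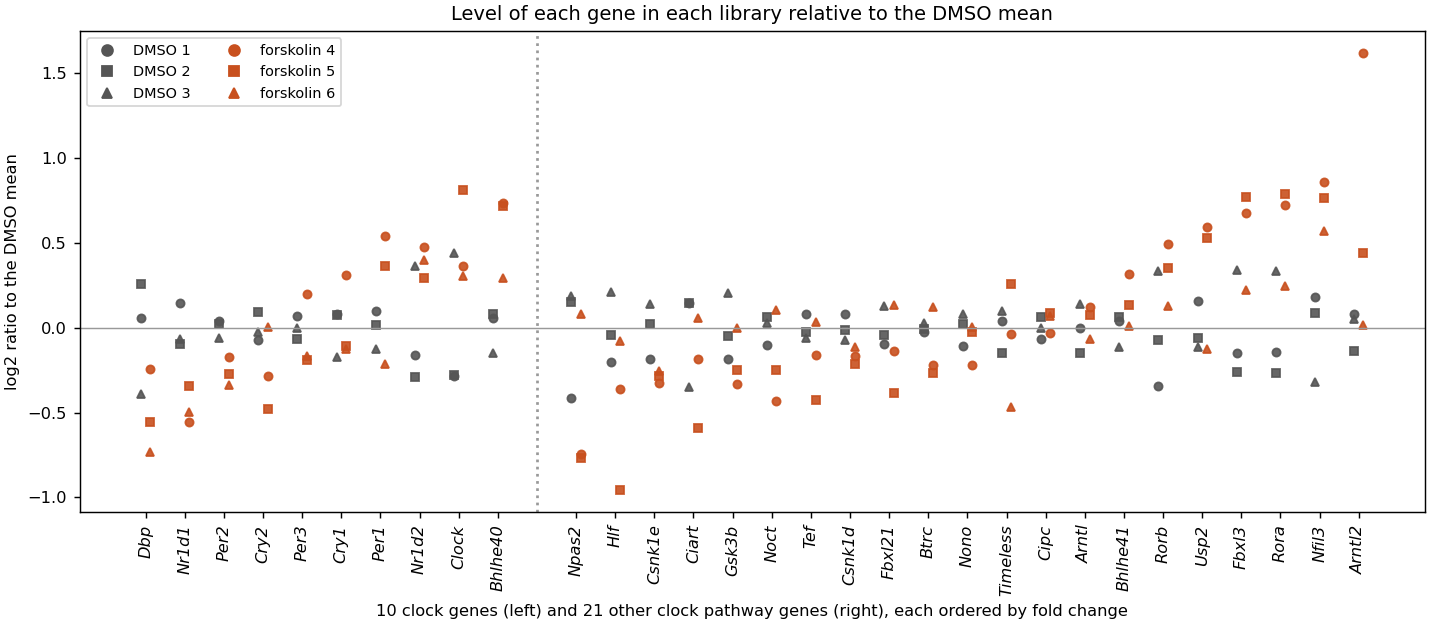
Log2 ratio of each gene's CPM to its DMSO mean (vertical axis) in each library, for the 10 clock genes (left of the dotted line) and 21 of the other clock pathway genes (right), ordered by fold change; grey symbols are DMSO libraries and orange symbols forskolin libraries. Bhlhe40 and Nfil3 are above the controls in all 3 forskolin libraries, and Per1 and Rora in libraries 4 and 5 only.

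The pattern of Per1 over the 6 libraries was compared with that of 12361 other tested genes whose mean count reached 100, by the root mean square difference of centred log2 CPM. The nearest were Tmem231 (0.037), Znfx1 (0.038), Gm10643 (0.046), Scamp2 (0.050) and Pgm1 (0.053). As for Per1, libraries 4 and 5 were the highest and library 6 the lowest of the 6 in each of these genes. The genes were chosen for likeness to Per1 over these same libraries, so the shared order is no separate result. In Tmem231, for example, the levels were 16.99, 16.6 and 14.4 CPM with DMSO and 23.8, 20.8 and 13.2 CPM with forskolin.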

How the data were processed

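Per the labels' protocols, Trizol/chloroform RNA was used for standard Illumina library preparation. The authors deposited whole numbers for each gene symbol in 6 columns, treated here as raw counts. The submitters' processing notes name Salmon, DESeq and GRCm38 without a role, so the counts may be rounded estimates, with reads shared between overlapping genes assigned by the estimate; the strand setting is not given in the sources used here. The authors' deposited table of results gives a mean normalised signal, log2 fold changes with standard errors, a test score and p-values, per the file headers; it was used only to look up membership.

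Low-count genes were removed by edgeR's filterByExpr (minimum count 10, minimum total 15); counts were scaled with TMM factors, fitted with glmQLFit on the group alone and tested with glmQLFTest. The Benjamini-Hochberg adjustment covered the 16233 tested genes, and 0.05 was the threshold. The SE was obtained from the F statistic (log2 fold change over root F), and the 95% interval uses 6.84 degrees of freedom. CPM use the TMM-scaled library size; log2 CPM used a prior count of 2 and ratios a pseudocount of 0.5. GC content and length came from GENCODE M21, with a GC value for 97.1% of tested genes; each library's lowess trend (span 0.3) of centred log2 CPM on GC content entered the fit as an offset. Overlaps of exons came from the same annotation. R 4.3.3, edgeR 4.0.16, limma 3.58.1 and DESeq2 1.42.0 were used. DESeq2 gave no adjusted p for 1287 genes.

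The members and lists were chosen with earlier results of these data known. The rule for naming genes took all 10 members, any other pathway gene past the threshold with the 4 largest changes, genes overlapping a member, and the 5 genes nearest Per1. One pathway gene is counted but not reported here. The alternatives were DESeq2, limma-voom, limma with library quality weights, RLE factors, library size alone, no filter, a filter on mean CPM (1 or more), removal of the GC trend, each library left out, and libraries 4 and 5 both left out. No 2 libraries had the same values: for each pair, chi-square over genes was at least 33.2 times its degrees of freedom. Counts carry no molecular identifiers.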

Additional observations from a re-analysis of the deposited data

How the results depend on the processing

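No paired analysis was possible because no library number occurs in both groups. Nr1d1 and Per2 stayed negative and Bhlhe40, Nr1d2 and Clock positive under each of the 16 alternatives. With TMM replaced by library size alone the median log2 fold change of all genes moved from 0.02 to -0.085. The number of genes called in the whole table, 245, became 1775 with DESeq2, 6795 with limma's quality weights, 137 with RLE factors, 94 with libraries 4 and 5 both left out, 0 with the GC trend removed by edgeR (1947 at an unadjusted p under 0.05), and 5432 with that and library 6 left out. Leaving out 1 library gave 0 to 5698 in edgeR; the 0 applies to each of libraries 1 to 5 (1945 to 3216 genes at an unadjusted p under 0.05) and 5698 to library 6. Clock members called, 0 in the main fit, were 2 with DESeq2, 5 with quality weights, 2 with the GC trend removed and library 6 left out, and 0 to 4 with 1 library left out. For the other pathway genes these counts were 1, 9, 8 and 0 to 7. Signs that turned belonged to values past no threshold. With libraries 4 and 5 both left out Per1 was at -0.17, Cry1 at -0.09 and Cry2 at 0.043. With the GC trend removed Per3 was at 0.06 and Dbp at 0.12, and with library 6 left out as well at 0.10 and 0.091. Scaling by size alone put Cry1 at -0.064. Leaving out 1 library moved Per3 between -0.18 and 0.06 and Cry1 between -0.12 and 0.14. The cause of these shifts was not tested. With 1 lone forskolin library, its spread is assumed to be that of the controls. Dbp had the fewest counts of the members; the part of depth in its error was not tested.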
